A study of Homo sapiens with 17 samples.

Results

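The genes described here encode the machinery that makes microRNAs and silences their targets: DROSHA, DGCR8, DDX5, DDX17, XPO5, DICER1, TARBP2, PRKRA, TNRC6A and TNRC6B. They were chosen by name, as subunits of the Drosha and Dicer complexes, in which TDP43 also takes part, with the export receptor and 2 GW182 proteins. All 10 were found among the 23368 genes of the count table, and all 10 passed the filter on low counts in every comparison. The cells were HEK293T, a human embryonic kidney line, of genotype WT or siTARDBP (here siTDP43), the latter transfected with siRNA against TARDBP, which encodes the RNA-binding protein TDP43. Poly(A) RNA of each genotype was sequenced as input, after pull-down with an antibody against N4-acetylcytidine (ac4C), a base modification written by NAT10 (IP), and after pull-down with control immunoglobulin (IgG). The 17 libraries comprise 3 per group, but 2 for WT IgG.

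MicroRNAs are cut from long primary transcripts in the nucleus by the Microprocessor, in which DROSHA is the nuclease, DGCR8 grips the hairpin, and the RNA helicases DDX5 and DDX17 assist on part of the substrates. XPO5 carries the hairpin precursor to the cytoplasm, where DICER1, with its double-stranded RNA-binding partners TARBP2 and PRKRA, releases the duplex. One strand is loaded into an Argonaute protein, and the GW182 proteins TNRC6A, TNRC6B and TNRC6C join Argonaute to the enzymes that shorten the poly(A) tail, remove the cap and repress translation. The libraries hold poly(A) RNA, so the values below are levels of the mRNAs that encode these proteins, not of microRNAs.

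Total counts per library were 24542434 to 36583436 in the inputs, 8610070 to 21066215 in IP, and 3013989 (siTDP43) to 9466855 (WT) in IgG. The 10 genes had 208 to 46122 counts in each input library and 34 to 688 in each siTDP43 IgG library, so values that rest on siTDP43 IgG are the least precise. TARDBP, the targeted gene, had 157, 165 and 159 CPM (counts relative to library size, scaled by TMM) in WT input and 104, 108 and 111 in siTDP43 input, a log2 fold change of -0.57 (SE 0.045, edgeR adjusted p 6.55e-13). Of the markers of the cell line, NEFL, NEFM and LIN28B had 841 to 5932 counts in each input library and PAX2 only 2 to 54. The leukocyte, erythroid and endothelial genes PTPRC, HBB and CDH5 were at 0 and the hepatocyte gene ALB at 0 to 4, while the fibroblast gene COL1A1 had 228 to 303 counts in WT and 34 to 56 in siTDP43 inputs. The labels name no control siRNA for WT and give no batches, so transfection, the loss of TDP43 and any batch cannot be told apart. Nothing says that replicates came from separate cultures, so the p-values measure only the spread between these libraries. Fewer cells with an mRNA and less of it per cell cannot be told apart in such bulk RNA.

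Levels of different genes can be set side by side only per length, here as CPM divided by the kilobases of exon (RPKM, scaled over the 17 libraries). In WT input PRKRA was the most abundant at 63.6 ± 1.04 RPKM (SD, n = 3), followed by DDX5 at 45.5 ± 0.893, TARBP2 at 23.5 ± 1.24 and DDX17 at 13.9 ± 0.245. XPO5 at 11.3 ± 0.427, DROSHA at 7.22 ± 0.198, DGCR8 at 2.46 ± 0.199 and DICER1 at 1.62 ± 0.0938 came next, and the GW182 mRNAs were lowest, TNRC6A at 0.788 ± 0.0729 and TNRC6B at 0.555 ± 0.0253. No neighbours in this order had overlapping libraries. The 2 partners of DICER1 were thus well above DICER1 itself, and DROSHA above DGCR8. In siTDP43 input DDX5 led the order at 396 ± 9.28 RPKM, ahead of TARBP2 at 46.7 ± 2.47 and PRKRA at 31.7 ± 1.65. DICER1 was last at 1.02 ± 0.135, next to TNRC6B at 1.13 ± 0.125, whose libraries overlapped those of DICER1.

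Across the 6 groups the genes varied to very different extents. The group means of DROSHA, on the 17-library CPM scale, ran from 31.1 ± 0.7 (SD, n = 3) in siTDP43 input to 48.7 ± 2.32 (n = 3) in WT IP, a ratio of 1.57. Each neighbour in the order of its 6 groups overlapped the next. DDX5 and TNRC6A had the widest ranges, each with a ratio of 11.4 between the highest and the lowest group. For DDX5 the highest group was siTDP43 input (1490 ± 34.9 CPM, n = 3) and the lowest WT IgG (131 ± 10.6, n = 2), whereas for TNRC6A they were WT IP (75.9 ± 0.889, n = 3) and WT input (6.64 ± 0.614, n = 3). DICER1 was highest in WT IgG at 105 ± 7.37 CPM (n = 2), and PRKRA in WT input at 138 ± 2.26 (n = 3). No single group held the highest level of every gene.

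**Figure D1:**
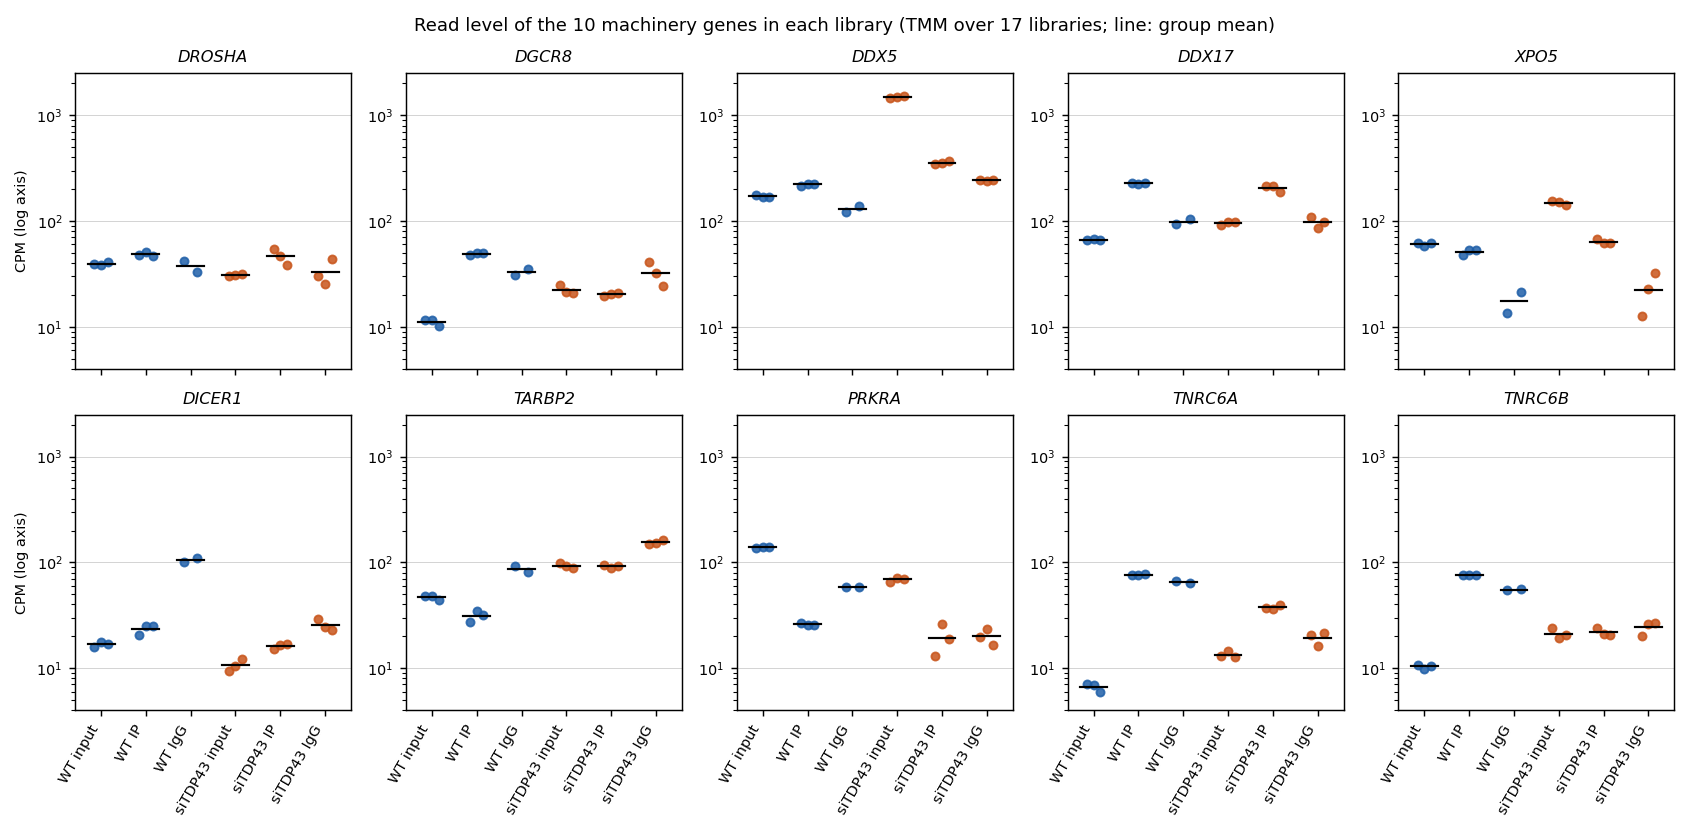
CPM of each of the 10 genes (log axis, TMM over the 17 libraries) by group, with 1 point per library (blue WT, orange siTDP43) and a line at the group mean. DDX5 stands at 1450 to 1520 in the siTDP43 inputs against 169 to 175 in the WT inputs, and DROSHA stays between 25.5 and 54.7 in all 17 libraries.

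The first comparison asked how the mRNA levels of the machinery differed between siTDP43 and WT inputs. Of the 10 genes 7 rose and 3 fell (edgeR, adjusted p under 0.05). In each the 3 siTDP43 libraries did not overlap the 3 WT libraries, but the share of all genes without overlap was not counted. Across all 14036 genes tested 79.2% were called, 38.6% higher and 40.6% lower. The median log2 fold change of the 10 genes was 1.0, and that of all genes tested was -0.05. In this comparison CPM is scaled over the 6 input libraries.

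Within the Microprocessor the subunits moved in different directions. DROSHA, the nuclease, had 41.4, 40.5 and 42.9 CPM in the WT libraries and 32.0, 32.9 and 33.3 in the siTDP43 libraries. It fell slightly, by 0.35 on the log2 scale (SE 0.067, edgeR adjusted p 2.39e-05). DGCR8, its RNA-binding partner, had 12.2, 12.2 and 10.6 CPM in WT and 26.1, 22.3 and 21.8 in siTDP43. It rose to 201% of WT, a log2 fold change of 1.01 (SE 0.101, edgeR adjusted p 1.63e-10), while 15.5% of its exon bases lie under other annotated genes, among them an antisense lncRNA.

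The helicase DDX5 changed most of the 10. It had 183, 177 and 177 CPM in WT input and 1530, 1570 and 1600 in siTDP43 input. The 8.74-fold rise (log2 3.13, SE 0.039, edgeR adjusted p 2.38e-33) was far beyond the spread between libraries, and 1.14% of all genes tested had a higher log2 fold change. Its paralog DDX17 had 69.7, 71.5 and 69.2 CPM in WT and 96.1, 103 and 102 in siTDP43, a 1.43-fold rise (log2 0.52, SE 0.05, edgeR adjusted p 7.55e-11). A search of the genome, exon by exon, found no copy of 100 bases or more at 97% identity elsewhere for either gene. It needed a long exact match to start from and could not score exons under 100 bases, so copies may have been missed.

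DDX5 (hg19 chromosome 17, 62494374 to 62502484, minus strand) carries the hairpins of MIR5047 and MIR3064. The table counts reads on these short intervals as rows of their own: chr17:62497332-62497431 for MIR5047, wholly in an intron, and chr17:62496884-62496967 for MIR3064, of which 8 bases lie in an exon. The mature microRNAs, from RefSeq (GRCh38.p14) and found at these hg19 positions, are shown because these are the hairpins whose intervals held reads. Capitals mark the seed, bases 2 to 8, and no 2 of the 3 share one.
hsa-miR-5047: uUGCAGCUgcgguuguaaggu
hsa-miR-3064-5p: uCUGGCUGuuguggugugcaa
hsa-miR-3064-3p: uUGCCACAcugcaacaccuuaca
Reads on these rows can come from any RNA that crosses the interval, such as unspliced DDX5 transcripts, and are no measure of the mature microRNAs.

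The MIR5047 interval had 186, 316 and 287 counts in WT input and 1056, 878 and 943 in siTDP43 input. It rose 4.53-fold (log2 2.18, SE 0.099, edgeR adjusted p 7.32e-19). MIR3064 had 54, 92 and 95 counts in WT input and 380, 288 and 342 in siTDP43 input, a 5.18-fold rise (log2 2.37, SE 0.16, edgeR adjusted p 1.53e-14). Both folds were below the 8.74 of DDX5 itself. Per 1000 DDX5 counts, MIR5047 had 35.2, 47.6 and 48.4 in the WT inputs and 22.9, 23.4 and 21.9 in the siTDP43 inputs. The groups did not overlap, with means of 43.7 ± 7.41 and 22.8 ± 0.758 (SD, n = 3 each). The exact permutation p was 0.1 (two-sided), and no comparison of 3 with 3 libraries can go below it. MIR3064 gave 13.4 ± 2.94 per 1000 DDX5 counts in WT and 7.96 ± 0.276 in siTDP43 (exact permutation p 0.1, two-sided), again without overlap.

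In the pull-downs these intervals were nearly empty. In WT IP MIR5047 had 10, 8 and 12 counts, or 1.91 ± 0.46 per 1000 DDX5 counts (n = 3), and it had 0 counts in all 3 siTDP43 IP libraries, which allows up to 0.642, 0.85 and 1.02 per 1000 DDX5 counts. MIR3064 had 11, 6 and 4 counts in WT IP and 1, 0 and 0 in siTDP43 IP. Both intervals were at 0 in all IgG libraries, where the 595 to 1342 counts of DDX5 allow up to 2.24 to 5.04 per 1000. These limits cover counting error alone and take each count as independent, so they are too low if both mates of a pair were counted. DDX5 itself kept 2948 to 5520 counts in the IP libraries. The rows of MIR3618 and MIR1306, wholly within exons of DGCR8, and of MIR3173, in an intron of DICER1, had 0 counts in all 17 libraries. How a read that lies on 2 overlapping genes was counted is not given in the sources used here.

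**Figure D2:**
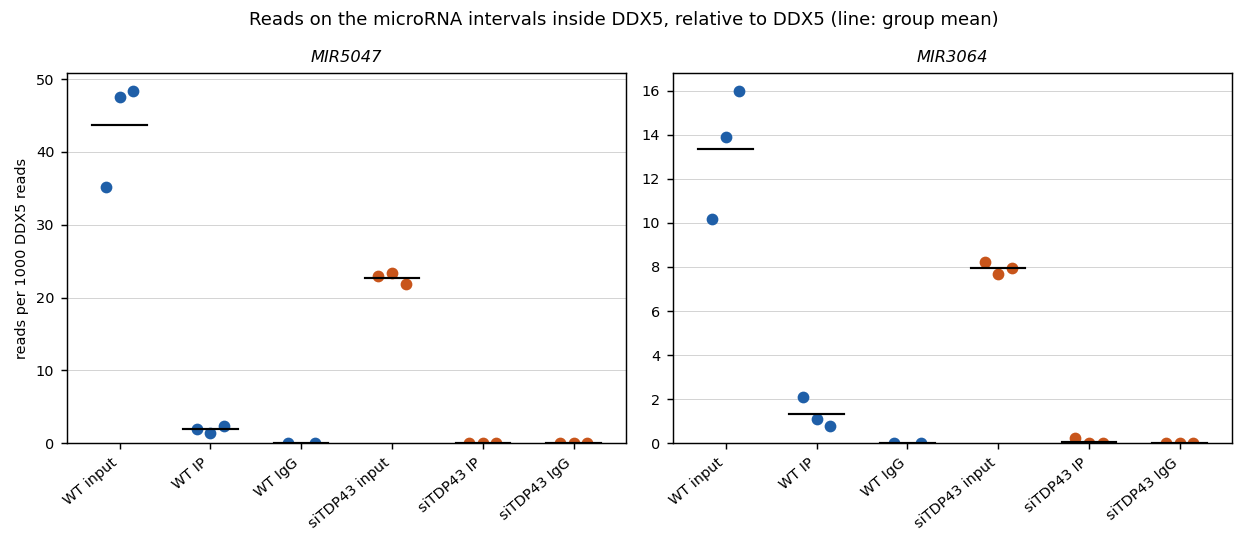
Reads on the MIR5047 and MIR3064 intervals inside DDX5 per 1000 DDX5 reads (linear axes from 0, a different range in each panel), with 1 point per library and a line at the group mean. MIR5047 lies at 35.2 to 48.4 in the WT inputs, at 21.9 to 23.4 in the siTDP43 inputs, and at most 2.37 in every pull-down library.

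The export receptor XPO5 had 65.4, 60.9 and 64.7 CPM in WT input and 164, 159 and 148 in siTDP43 input. It rose 2.47-fold (log2 1.30, SE 0.05, edgeR adjusted p 1.06e-20). An antisense gene, POLR1C, covers 6.49% of its exon bases, and whether the counting used strand is not given in the sources used here.

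Among the Dicer complex the nuclease and its 2 partners did not move together. DICER1 had 16.6, 18.6 and 17.8 CPM in WT input and 9.83, 11 and 12.7 in siTDP43 input, a fall to 63.0% of WT (log2 -0.67, SE 0.109, edgeR adjusted p 2.12e-06). TARBP2, which stabilises DICER1 and helps to hand over the duplex, had 50.9, 50.2 and 46.2 CPM in WT and 103, 98.2 and 92.2 in siTDP43. It rose 1.99-fold (log2 1.0, SE 0.056, edgeR adjusted p 2.00e-16). PRKRA, the other partner and an activator of the kinase PKR, had 142, 147 and 146 CPM in WT and 68.3, 76.0 and 73.3 in siTDP43, a fall by 1.0 on the log2 scale (SE 0.049, edgeR adjusted p 5.30e-18). Antisense lncRNAs cover 27.2% of the exon bases of TARBP2 and 38.7% of those of PRKRA, so without strand part of their counts may belong to those genes.

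Both GW182 mRNAs rose. TNRC6A had 7.35, 7.31 and 6.23 CPM in WT and 13.7, 15.4 and 13.3 in siTDP43, or 203% of WT (log2 1.02, SE 0.123, edgeR adjusted p 8.07e-09). TNRC6B had 11.3, 10.3 and 11.1 CPM in WT and 24.9, 20.2 and 21.7 in siTDP43, or 205% of WT (log2 1.04, SE 0.102, edgeR adjusted p 1.15e-10). All 7 rises and all 3 falls kept their side of the threshold in every alternative fit, including each fit without 1 library.

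**Figure D3:**
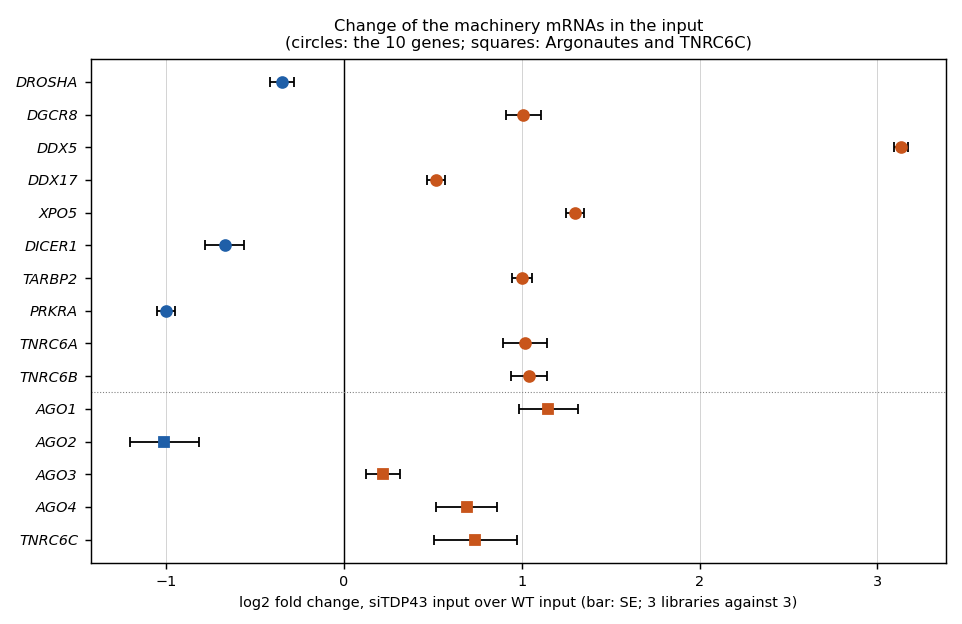
Log2 fold change of siTDP43 input over WT input for the 10 genes (circles) and, below the dotted line, for the Argonautes and TNRC6C (squares), with bars for the SE of the edgeR fit (3 libraries against 3). DDX5 lies at 3.13, 5 genes lie from 1.0 to 1.30, and DROSHA, DICER1 and PRKRA lie below 0.

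Further along the pathway the Argonautes, the proteins that hold the mature microRNA, were present at low counts. AGO1 (listed as EIF2C1) rose 2.22-fold (log2 1.15, SE 0.168, edgeR adjusted p 3.27e-07). AGO2 (EIF2C2), the Argonaute that can cleave its target, had 162, 212 and 186 counts in WT input and 102, 48 and 77 in siTDP43 input. It fell to 49.5% of WT (log2 -1.01, SE 0.195, edgeR adjusted p 2.40e-05). AGO3 (EIF2C3) and AGO4 (EIF2C4) rose by log2 0.22 and 0.69, and TNRC6C by 0.74, but the call of AGO3 was lost in 9 alternative fits, among them 5 of the 6 that leave out 1 input library, all but the one without siTDP43 input replicate 2. The call of AGO4 was lost once a GC trend was removed (log2 0.37, edgeR adjusted p 0.0511).

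A wider list of 32 genes of the pathway (Argonautes, TNRC6C, regulators of processing, deadenylation, and decapping with translational repression) was counted whole. Of the 31 tested, 16 rose and 8 fell in siTDP43 input, with a median log2 fold change of 0.22. Among all genes tested 38.6% were called higher and 40.6% lower. The 9 deadenylation genes held 5 rises and 2 falls: PAN3, a subunit of the PAN2-PAN3 deadenylase, rose by log2 1.48 (SE 0.091) and CNOT7, a catalytic subunit of CCR4-NOT, by 1.40 (SE 0.044). CNOT3, a structural subunit of the same complex, had a log2 fold change of -1.86 (SE 0.111), and KHSRP, an RNA-binding protein that promotes the processing of some precursors, -1.09 (SE 0.097). The edgeR adjusted p of these 4 genes was at most 1.12e-11. Of the 9 genes of decapping and repression 4 rose and 3 fell.

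The next comparison asked which of the 10 mRNAs were enriched by the anti-ac4C antibody in WT cells, where enrichment needed an adjusted p under 0.05 and a change of over 2-fold. Against input, TNRC6A, TNRC6B, DGCR8 and DDX17 were higher in IP and PRKRA was lower, and the other 5 genes did not pass. Of 14751 genes tested 57.5% passed, 30.2% higher and 27.3% lower. The median log2 fold change was 0.44 for the 10 genes and 0.01 for all genes. Against IgG, DDX17 and XPO5 were higher in IP and DICER1, TARBP2 and PRKRA lower, where 53.0% of all genes passed, 35.2% as higher and 17.8% as lower. DDX17 was therefore the one gene of the 10 that passed against both controls, as did 2302 genes in all (15.6%). Such genes are called ac4C(+) here. The term is the study's, but the study called genes by a different rule, so this set is not its list.

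TNRC6A stood far above input in both pull-downs. In CPM scaled over the 8 WT libraries it had 7.71, 7.74 and 6.59 in input, 84.1, 83.9 and 85.5 in IP, and 75.2 and 72.6 in IgG. IP was 11.5-fold above input (log2 3.52, SE 0.086, edgeR adjusted p 3.04e-21), but control IgG was also 10.1-fold above input (log2 3.33, SE 0.096, edgeR adjusted p 1.52e-19). IP over IgG was a log2 fold change of 0.19 (SE 0.085), under the 2-fold limit. TNRC6B had 11.8, 10.9 and 11.7 CPM in input, 85.5, 83.7 and 83.9 in IP, and 61.9 and 62.6 in IgG. Its enrichment over input was 7.35-fold in IP and 5.42-fold in IgG, and IP over IgG was log2 0.44 (SE 0.084).

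The exons of TNRC6A and TNRC6B, and of DROSHA, hold the motif UCCCAGCU, looked up here because the study examined it. It was searched on the sense strand of each exon in the table by itself, so a copy that spans a splice junction would be missed. The 5 copies in coding sequence are shown because they are the coding places within exons of the 10 genes that match the letters. Each has 8 bases on each side and the motif in capitals (hg19).
TNRC6A chr16:24804882-24804889: gacaguggUCCCAGCUggggggaa
TNRC6A chr16:24817016-24817023: accagcuaUCCCAGCUaaaccagc
TNRC6B chr22:40669490-40669497: gcucgccaUCCCAGCUgggaagag
TNRC6B chr22:40677194-40677201: uccccuucUCCCAGCUacaagcug
DROSHA chr5:31409223-31409230: accccaaaUCCCAGCUucagcagu
TNRC6B held 2 further copies outside its coding sequence. Of genes of like exon length (0.8 to 1.25 times), 38.9% held at least 1 copy for TNRC6A, 47.1% for TNRC6B and 28.9% for DROSHA. The other 7 genes, DDX17 among them, held none within an exon. The UG repeat UGUGUG, of the kind that TDP43 binds, occurred 20 times in TNRC6B, where genes of like length had a median of 4. It occurred 0 to 4 times in each of the other 9. Overlapping matches were each counted, so a longer UG repeat gives several. The related UGUGCG occurred 3 times each in XPO5 and DICER1, 2 times in DGCR8 and once in TNRC6A. A match in letters is a description and no evidence of a site.

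DGCR8 was also above input in both pull-downs. It had 12.8, 12.9 and 11.2 CPM in WT input, 53.4, 54.9 and 55.2 in IP, and 34.7 and 39.8 in IgG. IP was 4.43-fold above input (log2 2.15, SE 0.093, edgeR adjusted p 2.30e-16), IgG 3.03-fold above input (log2 1.60, SE 0.111), and IP over IgG log2 0.55 (SE 0.106).

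DDX17 had 73.2, 75.7 and 73.2 CPM in WT input, 258, 250 and 252 in IP, and 105 and 118 in IgG. All IP libraries lay above all libraries of both controls. IP was 3.42-fold above input (log2 1.78, SE 0.056, edgeR adjusted p 4.59e-19) and 2.27-fold above IgG (log2 1.18, SE 0.067, edgeR adjusted p 1.04e-13). DDX5 had a log2 fold change of 0.38 (SE 0.053) over input and 0.74 (SE 0.063) over IgG, both under 2-fold. Removal of a GC trend, an alternative added once the data had been seen, made them 1.08 and 1.23, and DDX5 then passed against both controls.

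XPO5 differed between the 2 controls. It had 68.6, 64.5 and 68.5 CPM in WT input, 53.7, 58.6 and 58.7 in IP, and 15.3 and 24.0 in IgG. IP was 2.92-fold above IgG (log2 1.54, SE 0.127, edgeR adjusted p 1.01e-10), but log2 -0.24 (SE 0.088) from input, and IgG itself fell to 29.1% of input (log2 -1.78, SE 0.126). DROSHA, with 43.5, 42.9 and 45.3 CPM in input, 53.4, 57.0 and 52.2 in IP, and 47.2 and 37.6 in IgG, had log2 fold changes of 0.30 over input and 0.35 over IgG, both under 2-fold.

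The 3 mRNAs of the Dicer complex were the ones lower in IP than in IgG. DICER1 had 17.4, 19.7 and 18.8 CPM in WT input, 23.0, 27.9 and 27.9 in IP, and 113 and 125 in IgG. Its CPM in IgG was thus 6.34 times that in input (log2 2.66, SE 0.099, edgeR adjusted p 1.84e-17). IP was at 22.1% of IgG (log2 -2.18, SE 0.099, edgeR adjusted p 2.16e-15). CPM is a share of each library, so these folds do not give the amount of RNA that an antibody held. TARBP2 had 30.6, 38.8 and 35.4 CPM in IP against 104 and 90.9 in IgG (log2 -1.48, SE 0.097, edgeR adjusted p 1.66e-12). Its IgG over input was log2 0.92 (SE 0.094), and 1.0 and past the limit without WT IgG replicate 2. PRKRA fell in both pull-downs: it had 149, 155 and 154 CPM in input, 30.0, 28.1 and 28.2 in IP, and 65.4 and 66.6 in IgG. Its IP level was 18.8% of input (log2 -2.41, SE 0.065, edgeR adjusted p 2.24e-20) and 43.6% of IgG (log2 -1.20, SE 0.078, edgeR adjusted p 1.47e-12). In WT IgG over input, 4 of the 10 genes passed as higher and 2 as lower, where 61.0% of all genes passed, 24.4% and 36.6%.

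**Figure D4:**
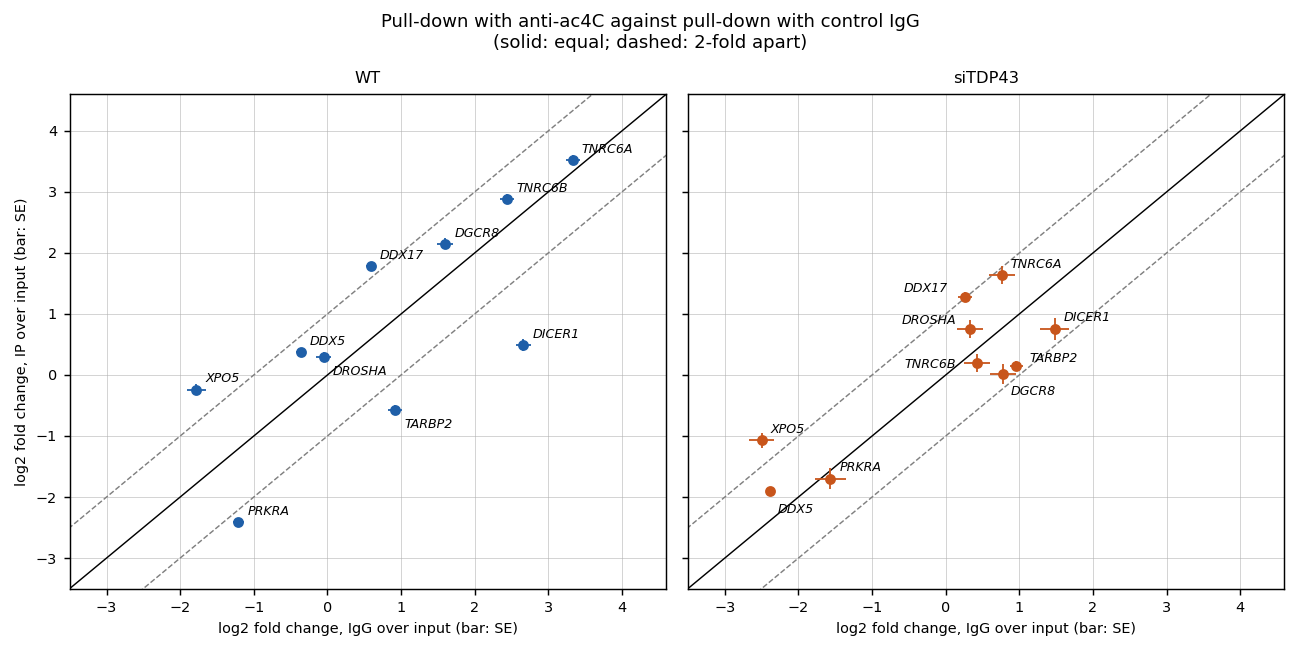
Log2 fold change over input of the anti-ac4C pull-down (vertical axis) against that of the control IgG pull-down (horizontal axis) for the 10 genes in WT (left) and siTDP43 (right), with bars for the SE, a solid line where both are equal and dashed lines 2-fold to either side. In WT TNRC6A lies at 3.33 and 3.52, close to the solid line, and DICER1 at 2.66 and 0.49, far below it.

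In the wider list 11 of 31 genes passed as higher and 7 as lower in WT IP over input, and 7 and 10 over IgG, with medians of 0.25 and -0.18. Among all genes 30.2% passed as higher and 27.3% as lower over input, and 35.2% and 17.8% over IgG. Apart from the Argonautes and TNRC6C, KHSRP was highest over input (log2 3.96, SE 0.065) and TUT7, a uridylyltransferase that modifies precursors, next (2.65, SE 0.084), while CNOT8, a deadenylase, had -2.41 (SE 0.102) and DCP2, the decapping enzyme, -2.02 (SE 0.107). KHSRP was also higher in IgG than in input (log2 3.76, SE 0.069). The edgeR adjusted p of these 5 values was at most 1.27e-14. AGO1 was 2.26-fold above input and 2.89-fold above IgG, and AGO4 3.28-fold and 3.49-fold, so both passed against both controls, while AGO3 was at 25.1% of input. AGO2 was 2.14-fold above input in IP and 6.14-fold in IgG, and TNRC6C 7.55-fold in IP and 19.2-fold in IgG. The calls of AGO1 and AGO4 against both controls, and that of AGO2 over input, were lost with limma on log2(FPKM + 1), and AGO2 over input also once a GC trend was removed (log2 0.98).

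The same question was asked in siTDP43 cells, in CPM scaled over the 9 siTDP43 libraries. Over input, DDX17 and TNRC6A were higher in IP and DDX5, XPO5 and PRKRA lower. Of 12746 genes tested 52.2% passed, 26.8% as higher and 25.4% as lower, and the median log2 fold change was 0.17 for the 10 genes and -0.09 for all. Over IgG, XPO5 and DDX17 were higher and none of the 10 lower, where 49.0% of all genes passed, 34.0% as higher and 15.0% as lower. With no fold limit, 3 of the 10 were lower than IgG at an edgeR adjusted p under 0.05. They were DGCR8 (log2 -0.76, edgeR adjusted p 0.00094), DICER1 (-0.73, edgeR adjusted p 0.00281) and TARBP2 (-0.82, edgeR adjusted p 3.52e-08), all short of 2-fold. DESeq2 called 0 lower with the limit. With a GC trend removed DICER1 passed as lower (log2 -1.04, edgeR adjusted p 6.75e-05), and DDX17 no longer passed as higher (0.88).

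DDX17 had 75.6, 80.9 and 81.6 CPM in siTDP43 input, 194, 200 and 179 in IP, and 105, 84.7 and 95.5 in IgG. It was 2.41-fold above input (log2 1.27, SE 0.082, edgeR adjusted p 4.38e-12), though not with scaling by total count (log2 0.93). Over IgG it stood at the limit itself, 2.01-fold (log2 1.0, SE 0.093, edgeR adjusted p 4.44e-09). The call ended at log2 0.99 without siTDP43 IP replicate 1, 0.97 without IP replicate 2 and 0.93 without IgG replicate 2, and DESeq2 gave 0.98. On that narrow margin DDX17 was ac4C(+) by the rule used here in siTDP43 too, where 1314 genes (10.3%) were.

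TNRC6A had 10.8, 12.1 and 10.6 CPM in siTDP43 input, 33.7, 33.9 and 37 in IP, and 20.1, 15.8 and 20.7 in IgG. IP was 3.12-fold above input (log2 1.64, SE 0.143, edgeR adjusted p 6.44e-10) and log2 0.88 (SE 0.173) above IgG, without overlap but under 2-fold. TNRC6B, with 19.6, 15.9 and 17.3 CPM in input, 21.5, 19.6 and 19.4 in IP, and 19.7, 25.3 and 25.9 in IgG, had overlapping libraries between IP and either control. DGCR8 likewise overlapped between IP and input (17.8, 19.0 and 19.5 CPM against 20.5, 17.5 and 17.3), with 40.1, 31.7 and 23.4 in IgG.

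DDX5 was far lower in both siTDP43 pull-downs than in input. It had 1200, 1230 and 1270 CPM in siTDP43 input, 315, 332 and 346 in IP, and 238, 235 and 237 in IgG. IP was at 26.7% of input (log2 -1.90, SE 0.058, edgeR adjusted p 5.74e-18) and IgG at 19.2% (log2 -2.38, SE 0.062, edgeR adjusted p 2.16e-19), and IP over IgG was log2 0.48 (SE 0.061). XPO5 had 129, 125 and 118 CPM in input, 61.0, 58.1 and 58.0 in IP, and 12.2, 22.2 and 31.0 in IgG. Its IP was at 47.7% of input (log2 -1.07, SE 0.126, edgeR adjusted p 8.50e-08) and above IgG by 1.43 on the log2 scale (SE 0.176, edgeR adjusted p 2.69e-07). The fall of XPO5 was no longer over 2-fold when genes needed a mean of 50 counts (log2 -0.99) or a GC trend was removed (-0.89).

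PRKRA was lower in both pull-downs in siTDP43 as well, with 53.7, 59.8 and 58.4 CPM in input, 11.7, 24.1 and 17.8 in IP, and 19.3, 22.9 and 15.9 in IgG. IP was at 30.8% of input (log2 -1.70, SE 0.175, edgeR adjusted p 1.07e-08), and IP and IgG overlapped. DICER1 had 7.72, 8.64 and 10.1 CPM in input, 13.7, 15.4 and 15.8 in IP, and 28.3, 23.7 and 22.1 in IgG, where IgG was 2.80-fold above input (log2 1.48, SE 0.199, edgeR adjusted p 5.10e-07), but not with scaling by total count (0.94) or limma on log2(FPKM + 1) (0.87). TARBP2 had 80.9, 77.2 and 73.4 CPM in input, 86.7, 82.5 and 87.1 in IP, and 145, 150 and 156 in IgG, so that IP over IgG was log2 -0.82 (SE 0.087). DROSHA had 25.1, 25.8 and 26.5 CPM in input, 49.7, 43.6 and 36.5 in IP, and 29.4, 24.9 and 42.7 in IgG, with IP over input at log2 0.75 (SE 0.144). In siTDP43 IgG over input 1 of the 10 passed as higher and 3 as lower, where 65.7% of all genes passed, 24.7% and 41.0%.

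**Figure D5:**
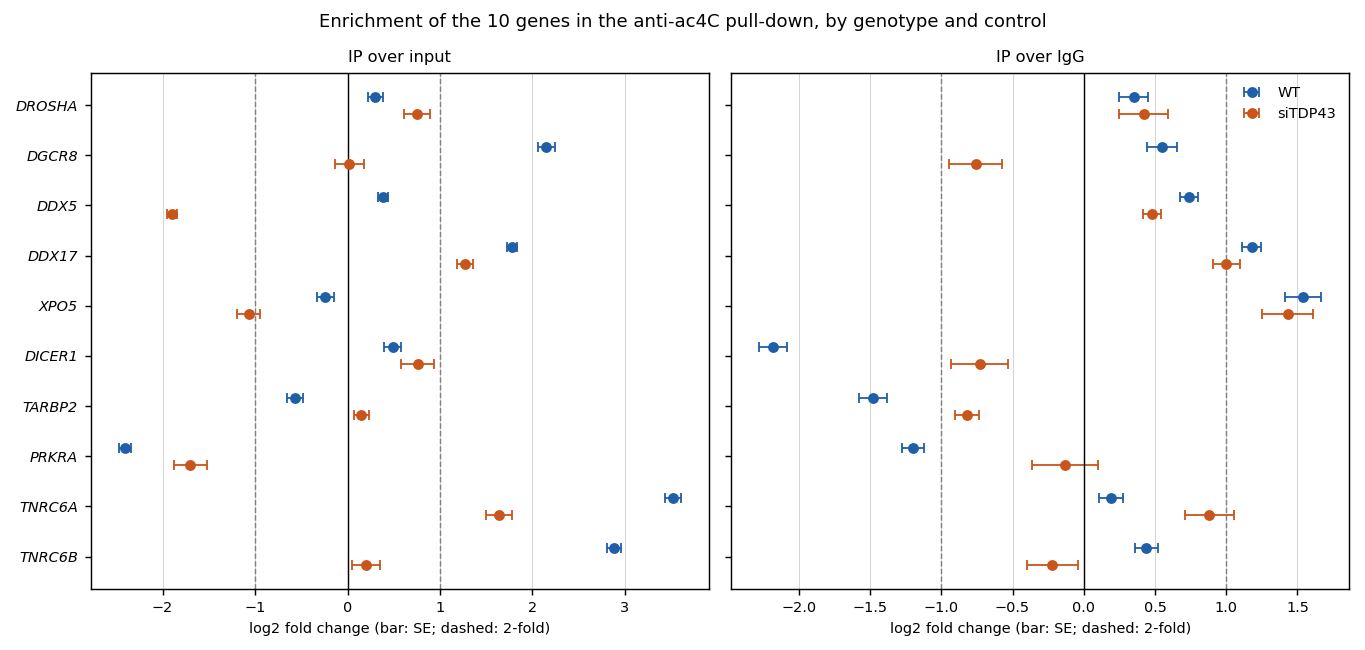
Log2 fold change of IP over input (left) and of IP over IgG (right) for the 10 genes in WT (blue) and siTDP43 (orange), with bars for the SE and dashed lines at 2-fold. DDX17 lies at or beyond the upper line in both panels and both genotypes, at 1.0 in siTDP43 IP over IgG, and DDX5 moves from 0.38 to -1.90 over input.

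In the wider list 5 of 31 genes were higher and 5 lower in siTDP43 IP over input, and 12 and 4 over IgG, with medians of -0.11 and 0.50. Among all genes 26.8% passed as higher and 25.4% as lower over input, and 34.0% and 15.0% over IgG. KHSRP was again highest over input (log2 3.49, SE 0.106), followed by CNOT6L, a deadenylase, and EIF4ENIF1, an eIF4E-binding repressor, both at 2.11 (SE 0.202 and 0.139). AGO3 was lowest, at 4.88% of input (log2 -4.36, SE 0.311), and PAN2 had -1.58 (SE 0.186). The edgeR adjusted p of these 5 values was at most 1.78e-07. Several genes of the list were nearly absent from siTDP43 IgG. AGO2 had 0 counts in all 3 of those libraries and 78, 80 and 64 in IP, which makes IP at least 6.16-fold higher at a floor of 3 counts per library. PAN2 was at 0 there too, at least 7.62-fold below IP. TNRC6C had 0, 0 and 4 counts in siTDP43 IgG and 162, 117 and 101 in IP, and AGO1 had 0, 0 and 6 against 98, 84 and 40, so a fold over IgG is not given for them. AGO3 showed the opposite order, with 14, 4 and 4 counts in IP and 36, 30 and 40 in IgG.

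The last comparison asked whether enrichment itself differed between the genotypes, through the interaction of genotype and fraction in a fit of all 17 libraries. A negative value means that IP stood less above its control in siTDP43 than in WT. These values can differ somewhat from the difference of the values above, since the scaling is set over other libraries. Relative to input the enrichment of 6 of the 10 genes fell and that of 2 rose, where 67.8% of 15165 genes were called, 36.3% lower and 31.5% higher. The median was -0.82 for the 10 genes and -0.19 for all. Relative to IgG 3 fell and 4 rose, where 60.8% of all genes were called, 25.9% lower and 34.9% higher, with medians of 0.03 and 0.24.

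Relative to input the GW182 mRNAs, DGCR8 and DDX5 lost most. TNRC6B had a log2 difference of -2.82 (SE 0.161, edgeR adjusted p 6.71e-18), as its mean level, in CPM over the 17 libraries, was 10.4 in WT input and 75.8 in WT IP but 21.2 and 21.8 in siTDP43. TNRC6A had -2.03 (SE 0.157, edgeR adjusted p 4.85e-14), with IP at 75.9 in WT and 37.6 in siTDP43. DGCR8 had -2.28 (SE 0.184, edgeR adjusted p 1.53e-13), with IP at 48.9 and 20.2 and input at 11.1 and 22.2. In these 3 genes the input was higher and the IP lower in siTDP43.

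DDX5 had -2.44 (SE 0.079, edgeR adjusted p 1.95e-25) with the numbers the other way round in IP: its IP level was 222 CPM in WT and 357 in siTDP43, and its input 171 and 1490. XPO5 had -0.98 (SE 0.159, edgeR adjusted p 1.51e-06), with inputs of 60.7 and 149 and IP levels of 51.2 and 63.8. DDX17 had -0.65 (SE 0.102, edgeR adjusted p 6.71e-07), with inputs of 66.9 and 95.4 and IP levels of 228 and 206. TARBP2 had 0.57 (SE 0.123, edgeR adjusted p 1.21e-04) and PRKRA 0.55 (SE 0.175, edgeR adjusted p 0.00578). Both were lost with scaling by total count (0.27 and 0.26), and that of PRKRA also without siTDP43 IP replicate 2 (0.26). DROSHA, at 0.31 (SE 0.168), and DICER1, at 0.12 (SE 0.183), did not pass, though DROSHA did without siTDP43 IP replicate 3 (0.42, edgeR adjusted p 0.0254).

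Relative to IgG the picture was different. DICER1 gained most, 1.50 (SE 0.21, edgeR adjusted p 7.62e-08), and its mean IgG level was 105 CPM in WT and 25.4 in siTDP43 while IP was 23.6 and 16.2. PRKRA gained 1.11 (SE 0.233, edgeR adjusted p 6.80e-05), with IgG at 58.5 and 19.9, TNRC6A 0.74 (SE 0.188) and TARBP2 0.72 (SE 0.137). For TNRC6A the sign was opposite to that relative to input, and its IgG level was 65.5 in WT and 19.4 in siTDP43. DGCR8 and TNRC6B fell relative to IgG too, by 1.26 (SE 0.217) and by 0.60 (SE 0.195). DDX5 had -0.21 (SE 0.089, edgeR adjusted p 0.0399), which was the least secure of these calls. It was lost without WT input replicate 2, WT IP replicate 2 or 3, WT IgG replicate 1, siTDP43 input replicate 2, siTDP43 IP replicate 1 or 2, or siTDP43 IgG replicate 1 or 3 (edgeR adjusted p 0.0519 to 0.264 in these 9 fits), and with total count scaling (0.071) or counts halved (0.0563). DROSHA, DDX17 and XPO5 did not pass, at 0.12 (SE 0.209), -0.13 (SE 0.12) and -0.06 (SE 0.236). DDX17 did pass as lower with DESeq2 (-0.35, adjusted p 0.001), with edgeR on the size factors of DESeq2 (-0.35, adjusted p 0.00837) and with a GC trend removed (-0.48, edgeR adjusted p 0.000581).

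In the wider list 8 of 31 genes rose and 17 fell relative to input, and 19 rose and 8 fell relative to IgG, with medians of -0.49 and 0.92. Among all genes 31.5% rose and 36.3% fell relative to input, and 34.9% rose and 25.9% fell relative to IgG. TUT7 had -3.04 (SE 0.195) and SRRT, which links the cap-binding complex to the Microprocessor, -2.47 (SE 0.139) relative to input, whereas CNOT6L had 2.29 (SE 0.258) and DCP2 1.30 (SE 0.211), with edgeR adjusted p of at most 1.44e-06. Also relative to input, AGO4 had -3.02 (SE 0.407), AGO3 -2.51 (SE 0.378), AGO1 -1.31 (SE 0.361) and TNRC6C -1.37 (SE 0.298), all past the threshold. AGO2, at 0.36 (SE 0.299), was not. Relative to IgG, AGO3 (-4.63, SE 0.453) and AGO4 (-3.44, SE 0.533) fell too, but TNRC6C and AGO2 passed as higher and AGO1 did not pass. TNRC6C, AGO2 and AGO1 were at or near 0 counts in siTDP43 IgG, so their values over IgG are not given.

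For 3 genes the mRNAs with the most similar profile were looked up, as Pearson's r of log2 CPM over the 17 libraries among 10140 genes. They were ALDH5A1 (0.898), D2HGDH (0.868) and ZFP90 (0.867) for DROSHA, TAPBP (0.951), DHX37 (0.951) and LOC646851 (0.938) for DGCR8, and ZBTB8A (0.972), RHBDF1 (0.969) and SLC4A7 (0.955) for DICER1. The libraries are replicates of 6 groups that share depth and handling, so each r mostly compares 6 group means and is a description without a test.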

How the data were processed

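The authors made libraries from poly(A) RNA with a SMART-seq2 protocol and deposited raw, unnormalized counts of each gene. The submitters' processing notes name Trim Galore 0.6.7, STAR 2.7.10a and featureCounts 2.0.2. The labels name a mouse build, whereas the study's methods name hg19, and the positions in the table are those of hg19. Strand use, annotation release and treatment of read pairs are not given in the sources used here. From 81.3 to 95.9% of counts of 1 to 20 were even, so each mate was probably a count of its own. Without molecular identifiers, tests and floors speak of libraries and reads, not of RNA molecules.

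The test was edgeR 4.0.16 under R 4.3.3 (quasi-likelihood F test, two-sided, TMM, filterByExpr with a minimum count of 10) on the whole table, with Benjamini-Hochberg adjustment over all genes tested. Fits held 6 libraries for the inputs, 8 for WT, 9 for siTDP43 and 17 for the interactions, with the group as the only factor. CPM is on the TMM scale of the fit named beside it. Where all libraries of a group held at most 3 counts, folds were bounds against 3 counts per library. If both mates of a pair were counted, that floor is too low. Exact permutation tests took the counts of a microRNA interval per 1000 DDX5 counts. On simulated counts, with 2- and 4-fold changes for the inputs and the interaction over input and 4- and 8-fold changes for IP over input, all changed genes were recovered and 0 to 5.66% of calls were false. Only 100 genes were changed at each fold, among 12325 to 14422 in all. Smaller changes and the comparisons with IgG were not simulated. Whether the same rates hold where 79.2% of genes are called, as in the inputs, was not tested. No library duplicated another (replicates differed by a chi-square of 3.23 to 9.17 per degree of freedom).

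The genes described and the wider list of 32 genes (all in the table, 6 under older symbols) were chosen with earlier results of these data known. From the wider list the text names the Argonautes and TNRC6C whatever their values. Otherwise it names at most the 2 highest and the 2 lowest log2 fold changes past the threshold without overlap. Both genes are named where values as printed tie for a place. Alternatives were DESeq2 1.42.0, its size factors, total count scaling, no filter, a mean of at least 50 counts, the replicate number as a block, limma 3.58.1 on log2(FPKM + 1), other sets of libraries, the omission of each library, and a limit of 5-fold over IgG; a GC trend removed and counts halved were chosen after seeing the data. Exon overlaps come from GENCODE v44lift37, microRNA sequences from RefSeq. Protein sequences were not used here.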

Additional observations from a re-analysis of the deposited data

Results flagged for a closer look

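The results here stand out because the change of enrichment between WT and siTDP43 passed the interaction test in the fit of all 17 libraries (edgeR adjusted p under 0.05). Values are log2 differences, siTDP43 minus WT. Relative to input they were -2.82 for TNRC6B, -2.44 for DDX5, -2.28 for DGCR8, -2.03 for TNRC6A, -0.98 for XPO5 and -0.65 for DDX17, and 0.57 for TARBP2 and 0.55 for PRKRA. Relative to IgG they were -1.26 for DGCR8, -0.60 for TNRC6B and -0.21 for DDX5, and 1.50 for DICER1, 1.11 for PRKRA, 0.74 for TNRC6A and 0.72 for TARBP2. With 67.8% of all genes tested past the same threshold relative to input and 60.8% relative to IgG, these flags are frequent. TNRC6A, TARBP2 and PRKRA, with DGCR8, DDX5 and TNRC6B, were flagged in both, and TNRC6A with opposite signs.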

How the results depend on the processing

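Over all alternatives 1733 of 1810 values of the 10 genes kept their direction and their side of the threshold, 30 called values no longer passed, 17 more passed and 30 changed sign; no called value changed sign. For the Argonautes and TNRC6C the counts were 849 of 902, 28, 6 and 19. All 10 genes stayed past the threshold in the inputs under each alternative. The cause of the shifts below was not tested.

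Genes past the threshold in WT IP over input numbered 8 of the 10 with a GC trend removed (DDX5, DICER1 and TARBP2 more), against 5. In siTDP43 IP over IgG 1 of the 10 passed, against 2, with DESeq2, its size factors, a mean of at least 50 counts, limma, counts halved or only the libraries of the groups compared. Over all genes, limma on log2(FPKM + 1) called 5508 against 8485 in WT IP over input, 4986 against 7815 in WT IP over IgG, 4195 against 6653 in siTDP43 IP over input and 4047 against 6241 in siTDP43 IP over IgG. The ac4C(+) genes among the 10 numbered 0 in both genotypes with a fold over IgG above 5. In WT they numbered 2 with a GC trend removed. In siTDP43 they numbered 0 with DESeq2, its size factors, a mean of at least 50 counts, limma, a GC trend removed or counts halved. With total count scaling the 1 such gene in siTDP43 was TNRC6A in place of DDX17.

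Leaving out 1 library in turn gave 10 to 10 of the 10 genes in the inputs, 5 to 5 in WT IP over input, 5 to 5 in WT IP over IgG, 6 to 7 in WT IgG over input, 5 to 5 in siTDP43 IP over input, 1 to 2 in siTDP43 IP over IgG, 4 to 4 in siTDP43 IgG over input, 7 to 9 in the interaction over input and 6 to 7 over IgG. The ac4C(+) genes then numbered 1 to 1 in WT and 0 to 1 in siTDP43. Without a WT IgG library, the one left is assumed to vary like the other groups.

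Values that changed sign were all small or uncalled. In WT IgG over input, DROSHA (-0.05) became 0.023 with a mean of at least 50 counts, 0.12 with a GC trend removed and -0.23 to 0.097 without 1 library, and AGO4 0.13 with a GC trend removed. In the inputs AGO3 became -0.036 with a GC trend removed. In siTDP43 IP over input, DGCR8 (0.02) became -0.059 with DESeq2, -0.060 with its size factors, -0.32 with total count scaling, -0.010 with no filter and -0.034 to 0.092 without 1 library. There AGO1 (0.00) became -0.077 with DESeq2, -0.075 with its size factors, -0.34 with total count scaling, -0.024 with no filter, -0.007 with limma, -0.003 with only the libraries of the groups compared and -0.17 to 0.18 without 1 library. TARBP2 (0.15) became -0.19 with total count scaling and -0.44 with a GC trend removed, and TNRC6B (0.20) -0.14 with total count scaling. In siTDP43 IP over IgG, PRKRA (-0.13) became 0.085 with total count scaling and -0.42 to 0.13 without 1 library. In siTDP43 IgG over input, total count scaling gave -0.21 for DROSHA, -0.28 for DDX17, -0.13 for TNRC6B and -0.024 for AGO4, and AGO4 was -0.031 to 0.97 without 1 library. There AGO3 was 0.087 when a mean of 50 counts was required and 0.37 with a GC trend removed, and -0.11 to 0.00 without 1 library. In the interaction over input, DICER1 (0.12) became -0.17 with total count scaling and -0.18 with a GC trend removed. In that over IgG, DROSHA (0.12) became -0.11 with DESeq2 and with its size factors, -0.15 with a GC trend removed and -0.063 to 0.39 without 1 library, and XPO5 (-0.06) 0.046 with limma and -0.41 to 0.32 without 1 library.

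The replicate number as a block left the counts of the 10 genes as they were except in the interaction over IgG, 6 against 7, where DDX5 was lost (edgeR adjusted p 0.055). Same-numbered libraries did not deviate together (0 of 40 pairs with a correlation over 0.1). With so few libraries per group, noise in each library can hide a shared origin. Whether same-numbered libraries came from the same RNA therefore cannot be decided from these correlations. The 3013989 to 3436811 counts of the siTDP43 IgG libraries limit what can be said of low genes there.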
